A study of Drosophila melanogaster with 3 samples.

Results

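The pair-rule genes were examined for binding of HHEX in the Drosophila embryo. The 9 members, hry, eve, ftz, run, odd, opa, prd, slp1 and slp2, were chosen by name from the list of known pair-rule genes, and all 9 were found by symbol among the 13945 protein-coding genes of the annotation. Chromatin immunoprecipitation followed by sequencing (ChIP-seq) had been carried out in 3 biological replicates of 1 group. These were whole embryos of mixed sex, 0 to 24 h old, from a transgenic line stably expressing CG7056 (HHEX, a homeodomain protein) with GFP at its C-terminus, and the antibody was against GFP. The labels do not say what drives the transgene, and no sample without the tag was analysed, so a peak here means a called region and not a shown HHEX site. The replicates were called against a control alignment that was not analysed here, and regions enriched in any anti-GFP precipitation cannot be told apart from those of HHEX. Because the embryos were whole and of mixed age, weak occupancy in many cells or stages cannot be told apart from strong occupancy in few.

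Pair-rule genes divide the early embryo into segments. Most are transcribed in stripes with a spacing of every other segment, under the control of maternal and gap gene proteins, and encode transcription factors that then set the stripes of the segment polarity genes. The members hry, eve, run, ftz and odd take up the spatial signals of the gap genes early, prd, slp1 and slp2 mainly follow other pair-rule proteins, and opa is expressed in a broad domain and acts as a timing factor. Many of their stripe elements lie some kilobases from the promoter, on either side of the gene, which is why regions around the genes were examined as well as promoters.

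The deposited regions carry a signal, a value of the authors' peak caller that has no unit here and was used only to rank and describe regions. The list thresholded on the irreproducible discovery rate (IDR), a measure of agreement between replicates, held 5586 peaks, with signals of 156 to 5323 and a median of 255. The pooled list, made from the reads of the 3 replicates together, and each replicate list held 30000 regions, which include background. The replicates differed in how many regions stood above background, since a −log10 q of 2 or more was reached by 9759 regions of replicate 1 but by 3212 of replicate 2 and 6498 of replicate 3. The number of reads is unknown. A region is placed by its summit, its highest point, and a peak lies at a transcription start site (TSS) when the summit is within 1000 bp of it.

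Of the 9 members, hry, opa, slp1 and slp2 had IDR peaks in or near the gene, and hry alone had one at its promoter. An IDR summit lay within 1000 bp of a TSS for 1 of 9 members, hry, where 23.2% of all protein-coding genes had one. A summit lay inside the gene for 1 of 9, again hry, against 14.4% of all protein-coding genes and 15% of the 8249 that are as long as the members (1425 to 17167 bp). A summit lay in the gene or within 10000 bp of either end for 4 of 9, hry, opa, slp1 and slp2, against 64.8% of all protein-coding genes and 69.6% of those of like length. With 9 genes, chosen by name, these counts are a description and were not tested, and the count inside the gene is close to the share over all genes. Over the 5586 regions of highest signal in each replicate, the count at TSSs was 1 member, hry, in each replicate, beside 23.7%, 21.7% and 23.4% of all protein-coding genes in replicates 1, 2 and 3. Inside genes it was 1, 0 and 0 members, beside 15%, 13.5% and 14.6%. Within 10000 bp it was 3, 5 and 4 members, a mean of 4 ± 1 (SD, n = 3), beside 64.5%, 64.4% and 64.4%. The members in all 3 replicates were hry, slp1 and slp2, with opa in replicates 2 and 3 and odd in replicate 2. Only 3212 regions of replicate 2 reached a −log10 q of 2, so its 5586 highest include weaker calls. In that replicate the −log10 q was 1.22 at odd, 1.55 at opa and 0.913 at the hry TSS. The replicate counts thus join calls of unlike strength.

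Other choices of window and list moved the counts as follows. At a TSS the count stayed at 1 of 9 within 500 bp (19.7% of all protein-coding genes) and was 2, hry and slp2, within 5000 bp (44.4%). Around the gene it was 2 within 5000 bp (50.5%) and 8, all but run, within 20000 bp (79.9%). In the IDR peaks with signals above the list's median, 0 members had a summit at a TSS (14.1%) or in the gene (8.79%), and slp1 and slp2 had one within 10000 bp (48.1%). In the whole pooled list 1 member had a region at a TSS (53.3%), 2, hry and opa, in the gene (36.6%), and 8 within 10000 bp (92.9%). Keeping only IDR peaks among the 5586 highest regions of 2 replicates left 0 members at a TSS or in the gene without replicate 1 (16.7% and 10.7%), 1 without replicate 2 (17.9% and 11.5%), and 0 without replicate 3 (16.0% and 10.3%). Within 10000 bp it left 4, 3 and 3 members (53.6%, 55.5% and 52.8%).

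**Figure D1:**
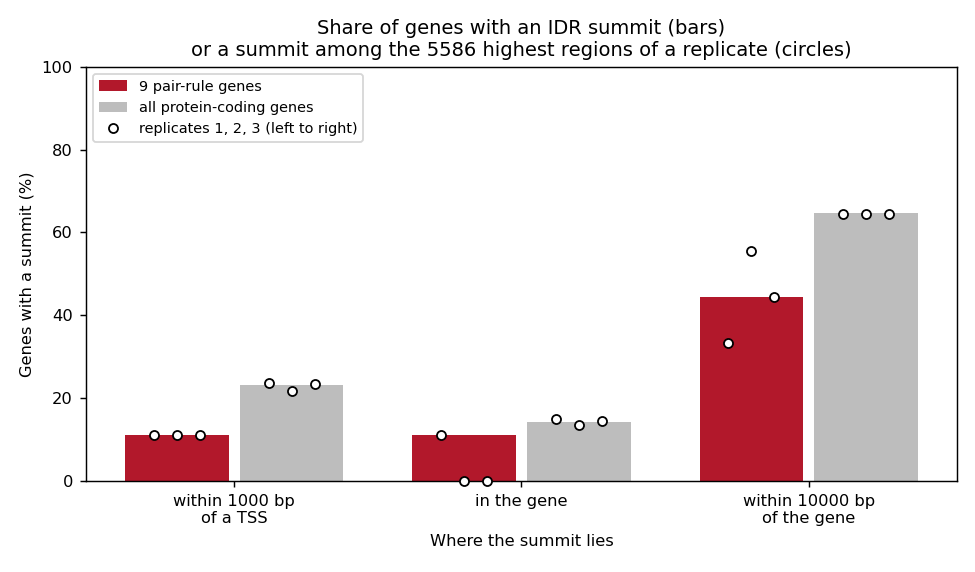
Share of genes, in percent, with a summit within 1000 bp of a TSS, in the gene, and within 10000 bp of the gene, for the 9 pair-rule genes (red) and all protein-coding genes (grey). Bars are the IDR list and circles the 5586 highest regions of replicates 1, 2 and 3; the pair-rule bar stands at 1, 1 and 4 of 9 genes, beside 23.2%, 14.4% and 64.8% of all protein-coding genes.

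The 5 IDR peaks within 10000 bp of a member were 3 at hry, 1 at opa and 1 that slp1 and slp2 share. For each of the 5, the nearest TSS of any annotated gene belonged to a member. Of the 5, 4 were intergenic and 1 lay in the transcribed part of hry, where 33.5% of all 5586 IDR summits (1872) were intergenic. The 4 lay over 1000 bp from any TSS, and of the 2450 such IDR summits 24.1% (591) were intergenic. This was not tested. The slp1/slp2 peak had a pooled signal of 808 and the other 4 had 159 to 222, all under the median of the IDR list. In the pooled list 52 regions lay within 10000 bp of a member. The 47 under the IDR threshold, which are below the lowest IDR signal of 156 by construction, had signals of at most 147. Of those 47, 8 were held by a region in all 3 replicate lists, 21 in 2 lists, 17 in 1 list and 1 in none. The like shares over all 24414 pooled regions under the threshold are not given here. Whether this replicate support is usual thus cannot be read from these counts.

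**Figure D2:**
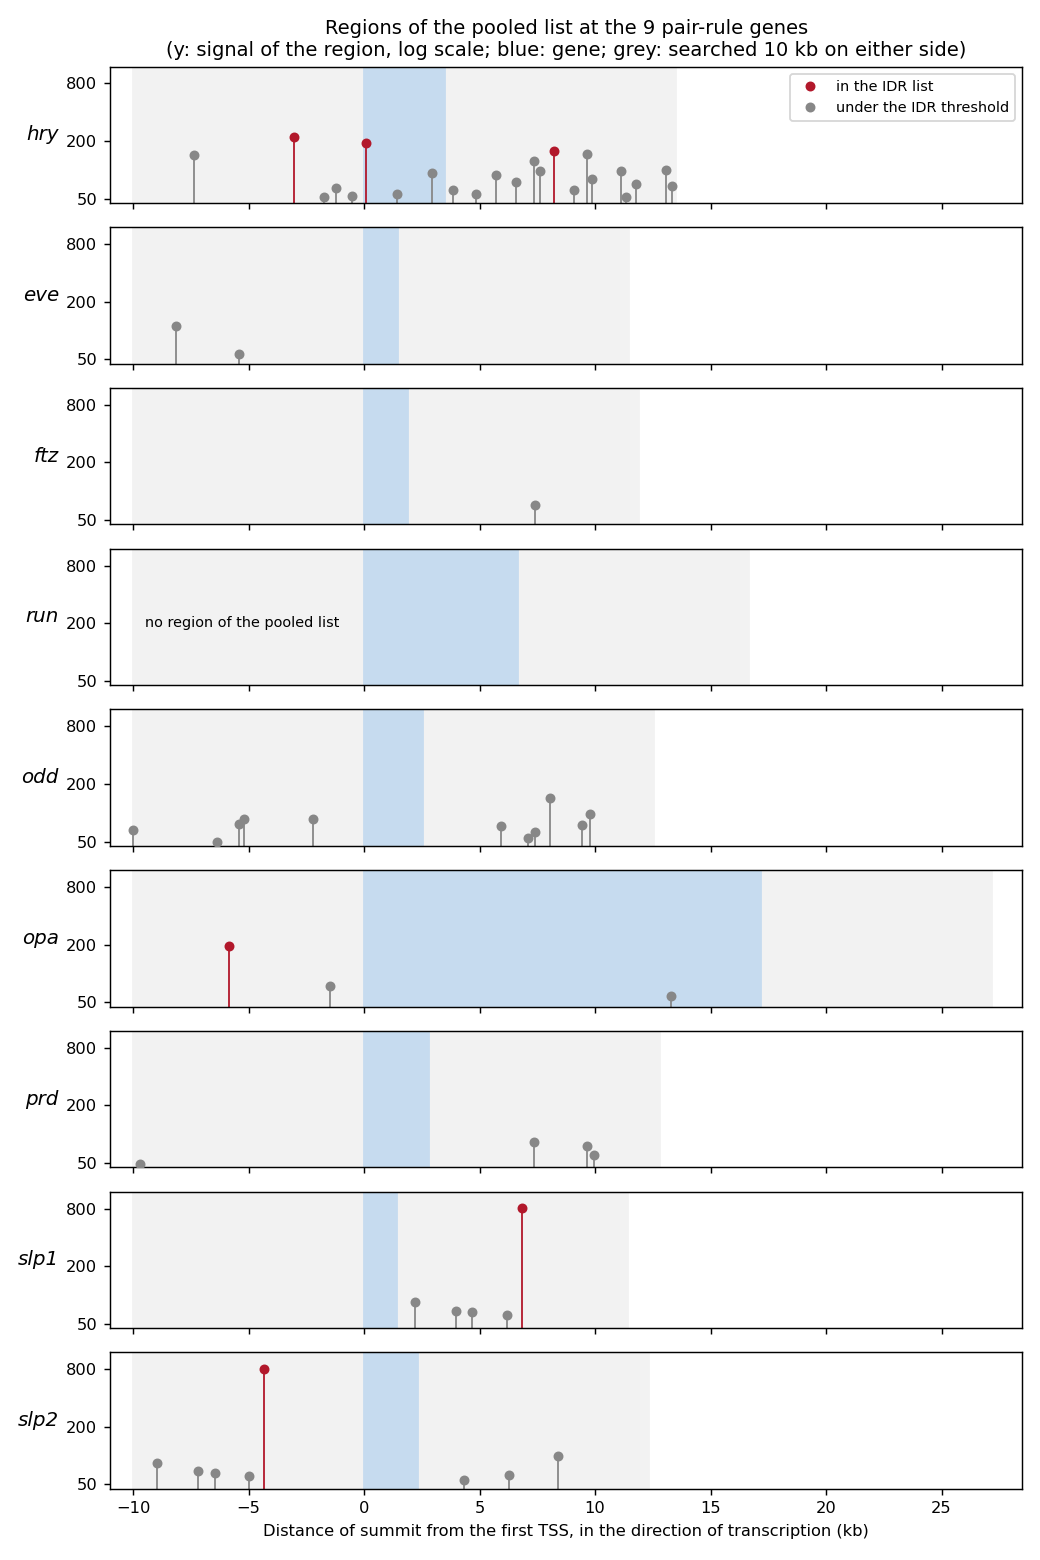
Regions of the pooled list around each member, by distance of the summit from the first TSS in kilobases and by signal on a log scale. Red points are IDR peaks and grey points are regions under the threshold; the gene is blue and the searched 10000 bp on either side are light grey. Most regions lie around hry and odd, the highest point is shared by slp1 and slp2, and run has none.

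The gene hry (hairy, FBgn0001168, chromosome 3L, 8675759 to 8679253, plus strand) encodes a basic helix-loop-helix repressor that works with the corepressor Groucho. It had the most regions of the 9. Within 10000 bp there were 3 IDR peaks, a number reached by 23.2% of protein-coding genes, and 23 regions of the pooled list, a number reached by 2.24%, where the median protein-coding gene had 6. The replicate lists held 14, 21 and 21 regions there in replicates 1, 2 and 3, against a median of 6, 5 and 6 over all protein-coding genes. The next protein-coding genes were Pex7, 24747 bp to the left, and SrpRbeta, 39695 bp to the right. A link between this spacing and the number of regions was not tested.

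At the hry promoter the IDR peak (3L, 8675624 to 8676047) had its summit 77 bp downstream of the nearest TSS, in the 5′ untranslated exon. Here the pooled signal reached 192, and 4187 IDR peaks ranked above it. Replicate 1 had a region of signal 101 there, rank 2462, with its summit 5 bp inside the gene, and replicate 3 had one of 99.3, rank 2345, with its summit 1 bp upstream of the gene. The list of replicate 2 had no region over the pooled summit. Its nearest region at the promoter had a signal of 48.7, rank 5427, and a summit 547 bp upstream of the TSS. All 3 replicates thus had a region within 1000 bp of the hry TSS, but not the same one. Replicates 1 and 3 placed it alike and replicate 2 farther upstream. The −log10 q was 4.04 in replicate 1 and 3.91 in replicate 3, but 0.913 in replicate 2. That region of replicate 2 held the summit of another pooled region, of 52.9, rank 26834, under the IDR threshold. No other replicate list had a region over that summit. Replicate 1 alone had one of its 5586 highest summits inside the gene, since that of replicate 3 lay 1 bp outside it. With replicate 1 or replicate 3 left out, the IDR peak was not among the 5586 highest regions of both others. Then hry had no summit at its TSS. In pooled signal the IDR peaks at promoters ranked next above and below it were those of Pkn and CG18480, with 192 each, differing by 0.00495 and 0.0328. That likeness is of level only, in the 1 pooled list.

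Another hry peak was upstream (3L, 8672519 to 8672942), with its summit in intergenic sequence 3028 bp from the TSS. It reached 222 in the pooled list (rank 3414), above the 192 of the promoter peak, although in replicates 1 and 3 the promoter peak was the higher. The replicate signals were 65.9 in replicate 1, 82.2 in replicate 2 and 69.7 in replicate 3, a mean of 72.6 ± 8.56 (SD, n = 3), and ranks of 5124, 2665 and 4185 put it among the 5586 highest in each. The third hry peak (3L, 8683768 to 8684191) lay downstream of the gene, 8025 bp from the TSS, with a pooled signal of 159, rank 5465, close to the lowest IDR signal. Its replicate signals were 35.1, 52.0 and 72.3, averaging 53.1 ± 18.6 (SD, n = 3), with replicate 3 above and replicate 1 below. Just under the threshold, hry had regions of 147 at 9456 bp downstream and 144 at 7371 bp upstream of the TSS, ranks 6065 and 6269 in the pooled list. The region of 147 was present in all 3 replicates, with 56.2, 47.9 and 53.0, and that of 144 was missing in replicate 1 and had 72.7 in replicate 2 and 29.6 in replicate 3.

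Sequences of the 2 hry peaks nearest the gene, from the NCBI RefSeq copy of genome release 6 (dm6, plus strand), are given because they hold words of different classes. The upstream one is the 200 bp around the summit. The promoter one is the 135 bp of the peak that precede transcription, most of which lies outside the 200 bp around its summit. Capitals mark matches, on either strand, to any of the 10 words searched.
hry upstream peak, chr3L:8672631-8672830: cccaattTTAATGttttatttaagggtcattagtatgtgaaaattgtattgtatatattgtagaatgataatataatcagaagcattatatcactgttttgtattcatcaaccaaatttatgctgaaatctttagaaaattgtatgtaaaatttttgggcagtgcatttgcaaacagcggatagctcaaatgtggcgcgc
hry promoter peak, chr3L:8675624-8675758: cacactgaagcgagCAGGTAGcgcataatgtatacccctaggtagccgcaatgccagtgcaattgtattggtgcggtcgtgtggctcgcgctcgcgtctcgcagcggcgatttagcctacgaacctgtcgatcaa
The upstream sequence was rich in A and T, with 30.0% GC, and its capitals are CATTAA on the minus strand, a word of the homeodomain class. That word starts 93 bp before the summit, near the edge of the window, and was in 16.3% of all IDR summits. The printed promoter stretch had 56.3% GC. The 200 bp around the promoter summit had 47.0% GC and those around the downstream one 55.0%, where IDR summits as a whole had 37.1% ± 7.57 (SD over peaks). The capitals in the promoter stretch are CAGGTAG, the word bound by Zelda, the early activator of the zygotic genome. They lie in the peak but outside the 200 bp around its summit. Within those 200 bp the only word found was GAGAG, which was in 24.5% of all IDR summits.

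The members slp1 (FBgn0003430, chromosome 2L, 3825675 to 3827099) and slp2 (FBgn0004567, 2L, 3836840 to 3839185) encode closely related forkhead domain proteins, are neighbours on the plus strand, and are separated by 9740 bp. The peak between them was the strongest at any pair-rule gene. It ran from 3832389 to 3832642, was 254 bp wide where the median IDR peak was 424 bp, with a summit 6833 bp downstream of the slp1 TSS and 4332 bp upstream of the slp2 TSS. The pooled signal was 808, rank 384 of 5586, so 6.87% of IDR peaks ranked as high or higher. Replicate 1 had a signal of 283 there, replicate 2 had 281 and replicate 3 had 257, averaging 274 ± 14.8 (SD, n = 3). The ranks were 380, 369 and 406, and the replicate summits lay 11, 9 and 3 bp from the pooled one, so the 3 replicates placed this peak alike in level and position. Among the 2450 IDR summits over 1000 bp from any TSS, 87 had a signal as high or higher, the peak itself included.

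The sequence of that summit is given because of a word in it that was more frequent at summits near TSSs than at other summits. It is the 200 bp around the summit (RefSeq release 6, dm6, plus strand), with word matches in capitals.
slp1/slp2 peak, chr2L:3832408-3832607: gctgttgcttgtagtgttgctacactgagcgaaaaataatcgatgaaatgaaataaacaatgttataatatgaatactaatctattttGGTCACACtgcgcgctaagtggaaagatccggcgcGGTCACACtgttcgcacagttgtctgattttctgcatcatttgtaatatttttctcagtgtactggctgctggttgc
Both stretches of capitals are GGTCACAC, a word of motif 1, which is bound by M1BP, a zinc finger protein of core promoters. The word was in 105 of the 5586 IDR summits (1.88%). It was in 96 of the 3136 within 1000 bp of a TSS (3.06%) and in 9 of the 2450 farther away (0.367%). Only 2 of all 5586 summits held 2 or more copies in their 200 bp, and the slp1/slp2 peak was the only 1 of these over 1000 bp from an annotated TSS. The summit held none of the 4 homeodomain words, and its GC content was 40.0%.

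Besides the shared peak, slp1 and slp2 had only weak regions. In the pooled list the shared sequence also held regions of 84.3, 68.4, 65.9 and 61.5, which lie 2213 to 6199 bp downstream of the slp1 TSS, and downstream of slp2 there were regions of 55.1, 62.3 and 100.1. Inside slp1, replicate 2 alone had regions, of 22.1 and 26.4, near the lowest signal of its list, 20.6. At the slp2 TSS and inside slp2 none of the 3 replicate lists had a region.

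The gene opa (odd paired, FBgn0003002, chromosome 3R, 4852813 to 4869979, plus strand) encodes a zinc finger protein of the Zic family and is the longest member. Its IDR peak (3R, 4846763 to 4847186) lay in intergenic sequence 5838 bp upstream of the TSS. The pooled signal was 194, rank 4133. The replicate signals were 61.0, 62.8 and 58.6, a mean of 60.8 ± 2.11 (SD, n = 3). These values were close, but the ranks were 5761, 3825 and 5492, so the region was outside the 5586 highest in replicate 1 and inside them in replicates 2 and 3. The 200 bp at the summit held none of the 10 words and had 37.0% GC. In the gene itself the pooled list had 1 region, of 58.7 in the intron, and the replicate lists had 2, 5 and 2 regions, with signals of 18.4 to 31.9. Within 1000 bp of the TSS replicate 1 had a region of 19.0 and replicate 2 one of 23.5. The lowest signals of those lists were 18.2 and 20.6. Replicate 3 and the pooled list had none there, and the pooled list had one of 74.1 at 1469 bp upstream.

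**Figure D3:**
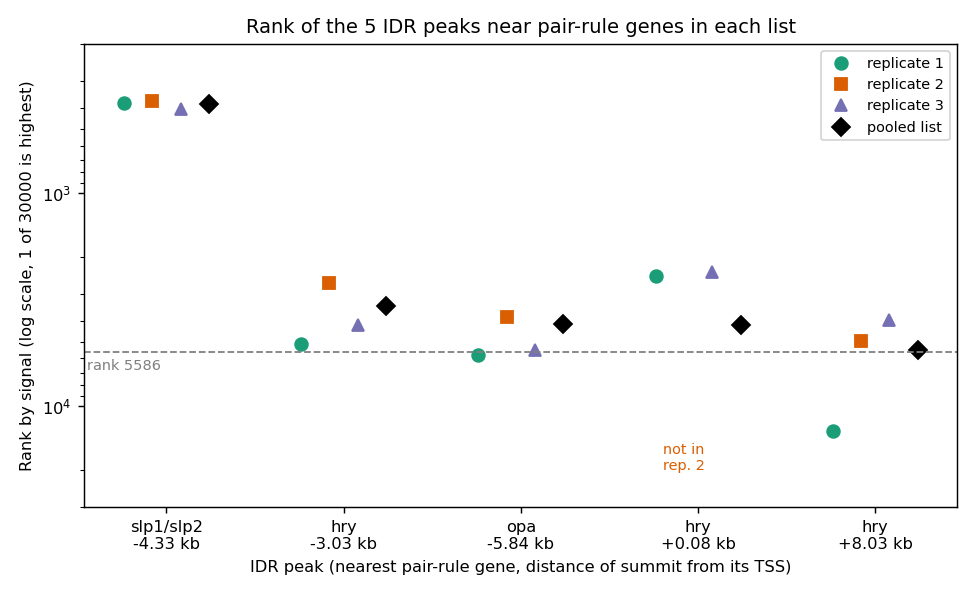
Rank by signal (log scale, higher ranks at the top) of the 5 IDR peaks near pair-rule genes in the 3 replicate lists and the pooled list, ordered by pooled rank of the peaks as slp1/slp2, hry upstream, opa, hry promoter and hry downstream. The dashed line is rank 5586; the slp1/slp2 peak ranks 369 to 406 in the replicates, and the hry promoter summit is in no region of replicate 2.

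The other 5 members, eve, run, ftz, odd and prd, had no IDR summit within 10000 bp. The gene eve (even skipped, FBgn0000606, chromosome 2R, 9979319 to 9980795) encodes a homeodomain repressor, and its stripe elements on both sides of the gene are among the best studied of the embryo. The pooled list had 2 regions near it, both upstream. That of signal 111 lay 8145 bp from the TSS, in a 5′ untranslated exon of the neighbouring gene CG12134, and that of 56.9 lay 5401 bp away in a long noncoding RNA exon. Within the gene, replicate 2 had a region of 20.7, rank 29901, replicate 3 had 2 of 27.5 and 25.4, ranks 18771 and 21309, and replicate 1 had none. The nearest IDR summit was 19412 bp away at the TSS of Pal1, a strong peak of signal 2204, rank 31.

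The gene run (runt, FBgn0003300, chromosome X, 20690670 to 20697321) encodes the founding Runx domain protein. It was the 1 member without a region of the pooled list within 10000 bp, as for 7.11% of protein-coding genes. Replicate 1 had 0 regions there, replicate 2 had 6 with a highest signal of 34.1, and replicate 3 had 2 with a highest signal of 24.5. One of those in replicate 2 lay 38 bp upstream of the TSS, with a signal of 31.5, rank 12052, and it had no counterpart within 1000 bp of the TSS in the other replicates. The nearest IDR summit was 33852 bp from the gene, 304 bp from the TSS of the cytochrome P450 gene Cyp6v1.

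The gene ftz (fushi tarazu, FBgn0001077, chromosome 3R, 6864324 to 6866244) encodes a homeodomain protein that acts with Ftz-F1 and lies among the Hox genes of the Antennapedia complex. It had 1 region in the pooled list, of 72.2 at 7386 bp downstream of the TSS, and no replicate list had a region over that summit. Replicate 2 had 4 regions within 10000 bp, of at most 27.2, among them 1 of 26.7 in the gene at 429 bp from the TSS, and replicates 1 and 3 had none. Replicates 2 and 3 thus had fewer regions at ftz than at run, and replicate 1 had none at either gene. The nearest IDR summit lay 17495 bp from the TSS in an intron of the long noncoding RNA CR44931.

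The gene odd (odd skipped, FBgn0002985, chromosome 2L, 3604224 to 3606756, minus strand) encodes a zinc finger repressor. It had 11 regions in the pooled list, all outside the gene, a number that 19.4% of protein-coding genes reach. The highest, 8036 bp downstream of the TSS, had a signal of 141, rank 6440, and was present in all 3 replicates with 60.4, 46.9 and 36.2. At its TSS only replicate 3 had a region, of 23.2. Replicate 2 had a region of 56.2 among its 5586 highest, rank 4432, at 9743 bp downstream of the TSS, and it was in neither of the other lists' 5586 highest. The nearest IDR summit, 15730 bp past the end of odd, had a signal of 311 and lay within 10000 bp of sob, the neighbouring paralog.

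The gene prd (paired, FBgn0003145, chromosome 2L, 12082995 to 12085827, minus strand) encodes a protein with a paired domain and a homeodomain. Its 4 pooled regions had signals of 49.3 to 82.4 and lay 6918 to 9699 bp from a TSS. In the gene only replicate 2 had a region, of 20.9, rank 29348. The nearest IDR summit was 17776 bp away, 148 bp from the TSS of ThrRS, a tRNA synthetase gene.

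Measured from the TSS, the nearest IDR summit was 77 bp away for hry, 4332 bp for slp2, 5838 bp for opa and 6833 bp for slp1, and 17495 to 33852 bp for the other 5. The median was 17495 bp over the 9 members and 6440 bp over all protein-coding genes. As far or farther from a summit were 12.2% of protein-coding genes for run, 22.9% for eve, 24.3% for odd, 24.9% for prd and 25.4% for ftz. The share was 48.6% for slp1, 52.3% for opa, 58.9% for slp2 and 94.3% for hry.

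**Figure D4:**
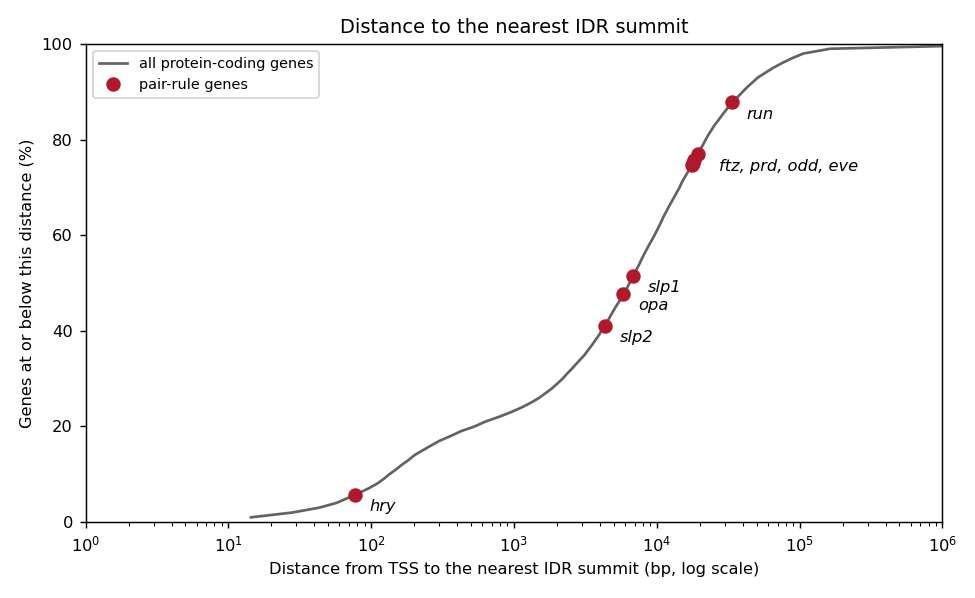
Distance from TSS to the nearest IDR summit in bp, on a log scale, against the percent of protein-coding genes at or below that distance (line), with the 9 pair-rule genes marked. The genes eve, ftz, odd and prd cluster at 17495 to 19412 bp, run is farthest at 33852 bp and hry nearest at 77 bp.

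Lists of genes that act before, with or after the pair-rule genes, together with paralogs of these, were examined in the same way. Of the 35 listed genes, 11 had an IDR summit within 1000 bp of a TSS, beside 1 of 9 pair-rule genes and 23.2% of all protein-coding genes. Within 10000 bp 21 had one, beside 4 of 9 and 64.8%. Of the 10 inputs 4 had a summit at a TSS. These were Stat92E, the JAK/STAT transcription factor (signal 662), hb, a gap gene (206), bcd, the anterior maternal determinant (191), and cad, a posterior homeodomain gene (176), while Kr, kni, gt, tll and zld had none within 10000 bp. Of the 15 genes listed as cofactors and paralogs 5 had a TSS summit. The strongest of all was at gro, which encodes the corepressor Groucho and had a pooled signal of 1040.1, rank 229, with 276, 380 and 361 in the replicates. The others were bowl, an odd paralog (586), Bgb, which encodes a partner of Runx proteins (205), Ten-m, a cell surface protein gene (174), and ftz-f1, the partner of Ftz (168). Of 10 targets 2 had one, Sxl, the sex determination switch gene that Runt activates (546), and nkd, a Wingless antagonist gene (278). In replicate 2, whose lowest signal was 20.6, the TSS peaks had 22.0 at hb, 22.1 at Ten-m, 28.8 at ftz-f1 and 35.9 at cad. The rest had 45.5 (nkd) to 380.0 (gro) in replicate 2. Without replicate 1, 2 or 3 the count of 11 of 35 became 5, 8 and 6, beside 16.7%, 17.9% and 16.0% of all protein-coding genes. Within 10000 bp 6 of 10 targets had a summit. The segment polarity genes differed, since ptc, which encodes the Hedgehog receptor, had 9 summits there with signals of up to 527 and hh, which encodes Hedgehog, had 2 of up to 178, both with at least 1 in the gene, while en, inv, wg and ci had none.

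Sequence words were then counted at the 5 summits and at the members' promoters. The 10 words were TAATTA (homeodomain class), CAATTA (the same class), CATTAA (the same class), TTATTG (the same class), CACGTG (an E-box), CAGGTAG (Zelda), GAGAG (GAGA factor), TATCGATA (the DNA replication-related element), GGTCACAC (motif 1) and a word of the GATA family, AGATAA, on either strand. The homeodomain words share letters and can overlap. At the 5 summits 3 words were found, each at 1 of 5, namely CATTAA (in 16.3% of all IDR summits), GAGAG (24.5%) and GGTCACAC (1.88%). The other homeodomain words were at 0 of 5, where TAATTA was in 16.6% of all IDR summits, CAATTA in 18.9% and TTATTG in 21.2%. A match is a run of letters and not a shown site.

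In the promoters, taken from 250 bp before to 50 bp after the most upstream TSS, GAGAG was in 8 of 9 members, all but opa, against 29.7% of all protein-coding promoters. CAGGTAG was in 4 of 9, hry, ftz, odd and slp1, against 1.64%. Of the 4 homeodomain words, CAATTA and TTATTG were in the slp2 promoter (25.2% and 27.4% of all promoters) and the other 8 promoters held none of the 4. Of the 4 promoters with CAGGTAG, hry alone had an IDR peak. The words are shown with 10 bases on either side, on the strand of the gene (RefSeq release 6, dm6), with the word in capitals.
hry, chr3L:8675628-8675654: ctgaagcgagCAGGTAGcgcataatgt
ftz, chr3R:6864108-6864134: agccgcgcagCAGGTAGgcaccgtacg
odd, chr2L:3606882-3606908, minus strand: ccgagagcagCAGGTAGgcgtggacgt
slp1, chr2L:3825525-3825551: aactgcccaaCTACCTGatgcccatcc
The word starts 121 bp upstream of the TSS in hry, 206 bp in ftz and 142 bp in odd. In slp1 it begins 140 bp upstream and is read on the opposite strand.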

How the data were processed

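Per the deposited file descriptions, each replicate list was derived from that replicate's alignment and a control alignment, the pooled list from the 3 alignments together, and the thresholded IDR list from the replicate and pooled lists. Chromatin was sonicated to 200 to 800 bp, per the labels. Which aligner, which peak caller and which IDR cutoff were used is not given in the sources used here. For each region, signal and −log10 q-value are the authors' deposited values, not rescaled between lists, so the SD of a mean over replicates includes any difference in scale. The dm3 lists were not used.

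Genes came from Ensembl release 115 (BDGP 6.54) without transposable elements, with 23581 distinct TSSs. Scripts used Python 3.11.15 and pandas 2.3.3. Summits were counted at TSSs, in genes and around them, and replicate values used as many highest-signal regions as there are IDR peaks. A replicate value at a peak is that of the region holding the pooled summit. Word windows ran from 100 bp before to 99 bp after the summit. The counting was tested on simulated data. No hypothesis was tested, since there is 1 group of samples and the members are named genes.

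Members and lists were chosen with earlier results of these data known. All members were named, along with genes of the other lists having an IDR summit within 1000 bp of a TSS. Also named were the genes nearest to summits around members, and the promoter peaks next in signal to that of hry. Genes without such a summit, the neighbours of the 5 members without a peak, and the motif 1 and CAGGTAG positions were picked after their values were seen. Alternatives were another window, list or threshold, region overlap, and leaving out a replicate.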

Additional observations from a re-analysis of the deposited data

How the results depend on the processing

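The hry promoter peak decided the counts at TSSs and in genes, and it depended on the replicate. Without a replicate, meaning IDR peaks among the 5586 highest regions of both others, the counts at TSSs and in genes ranged from 0 to 1. Both were 0 without replicate 1 or 3 and 1 without replicate 2, beside 16.0% to 17.9% of all protein-coding genes at TSSs and 10.3% to 11.5% in genes. The number of summits within 10000 bp ranged from 2 to 4 in place of 5, and the members with one from 3 to 4 (52.8% to 55.5%). The slp1/slp2 and upstream hry peaks were in all 3 of these sets, as were 3293 of all 5586 IDR peaks (59.0%). In the 2793 IDR peaks with higher signal, 0 members had a summit at a TSS or in the gene (14.1% and 8.79% of all protein-coding genes), and 2, slp1 and slp2, had 1 summit within 10000 bp (48.1%). In the pooled list 2 members had a summit in the gene and 8 had one of 52 within 10000 bp (36.6% and 92.9%). The median distance over the members was 4328 bp there, and the pooled value over all protein-coding genes is not given here. A window of 5000 bp gave 2 members at a TSS, hry and slp2 (44.4%), and 2 around the gene (50.5%). One of 20000 bp gave 8 members, all but run (79.9%), and 14 summits. Counting region overlap gave the same counts as summits. Words found were 1 in 100 bp and 6 in 400 bp windows. Among the 35 genes of the other lists the TSS count ranged from 5 to 8 without a replicate (16.0% to 17.9%), an alternative chosen after seeing the data. The cause of these differences was not tested. Since the sets without a replicate hold 3656 to 4017 peaks, fewer genes have a peak in them by construction. No paired analysis was possible because there is 1 group.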
